A study of Mus musculus with 24 samples.

Results

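Transcripts of 9 enzymes of the methionine and one-carbon cycle were followed in isolated mouse hepatocytes. The genes were Mat1a, Gnmt, Pemt, Ahcy, Bhmt, Cbs, Cth, Shmt1 and Shmt2, and each was taken by its gene symbol from the gene tables. All 9 were found among the 55421 genes listed, and all 9 were among the 13847 genes with enough counts to be tested.

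RNA came from 24 male C57BL/6J mice, with 1 library per animal. Encapsulated rapamycin (eRapa, 42 ppm in the food), an inhibitor of the kinase mTOR, or its eudragit vehicle was given from 4 months of age. From 18 months the vehicle-treated mice were kept on normal diet (the ND group, n = 8) or received high-fat food, 60% of its calories being fat, for 9 weeks (the HFD group, n = 7). Mice on the drug received the same high-fat food over those weeks (the eRapa group, n = 9). Hepatocytes were then isolated by perfusion of the liver. The drug thus preceded the high-fat food by many months, and no group received the drug on normal diet, so the eRapa group differs from ND in both food and drug.

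The liver is the main site of methionine metabolism. Methionine is activated to S-adenosylmethionine (SAM), the methyl donor of most methylation reactions, and each transfer of a methyl group leaves S-adenosylhomocysteine, which is split to homocysteine. Homocysteine is either remethylated to methionine, with a methyl group from betaine or from folate, or passed through transsulfuration to cysteine, while serine feeds carbon units to folate.

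Libraries held 17.7 to 25.9 M counts (M, 1000000 counts). Hepatocyte markers such as albumin and apolipoproteins were abundant in all libraries, with a summed level between 59515 and 177040.0 CPM (counts per M counts after scaling of libraries by TMM, the trimmed mean of M-values). Their medians were 136990 CPM in ND (range 65018 to 169330), 127200 CPM in HFD (103990 to 177040) and 116470 CPM in eRapa (59515 to 161360). Of 9 hepatocyte markers tested, 1 was lower in HFD than in ND, beside 9.86% of all genes tested (edgeR adjusted p under 0.05). Between eRapa and HFD 1 of 9 was higher, beside 10.9% of all genes, and none was called between eRapa and ND. Markers of other liver cells differed between groups. The summed level of 10 macrophage markers had a median of 258 CPM in ND (range 43.9 to 1369), 2496 CPM in HFD (171 to 5434) and 206 CPM in eRapa (16.2 to 1114). The 10 lymphocyte markers had medians of 5.89, 83.4 and 6.35 CPM (ranges 1.48 to 40.1, 4.12 to 507 and 2.65 to 35.9), and the 6 neutrophil markers 1.12, 23.1 and 2.32 CPM (0.114 to 6.68, 1.72 to 42.5 and 0.0563 to 11.6), with Ly6g at 0 in all libraries of ND and eRapa. In the same order of groups, medians were 228, 438 and 140.2 CPM for 8 endothelial markers (78.3 to 425, 110.4 to 664 and 61.1 to 319), 108, 123 and 37.6 CPM for 8 stellate cell markers (28.7 to 223, 31.1 to 358 and 17.9 to 86.6), and 104, 274 and 129 CPM for 6 cholangiocyte markers (61.6 to 135, 140.3 to 528 and 93.7 to 177). Between eRapa and HFD, 8 of 10 macrophage, 8 of 8 endothelial and 8 of 8 stellate cell markers tested were lower (edgeR adjusted p under 0.05). So were 1 of 2 lymphocyte, 2 of 3 neutrophil and 2 of 4 cholangiocyte markers, beside 21.1% of all genes tested. Between HFD and ND, 3 of 10 macrophage, 1 of 8 endothelial and 1 of 8 stellate cell markers were higher. So were 1 of 2 lymphocyte, 2 of 3 neutrophil and 4 of 4 cholangiocyte markers, beside 16.0% of all genes. Between eRapa and ND, 5 of 8 stellate cell and 1 of 8 endothelial markers were lower, beside 6.54% of all genes. In that contrast 1 of 4 cholangiocyte markers was higher, beside 6.93% of all genes, and no macrophage, lymphocyte or neutrophil marker was called. Immune markers were highest in HFD replicates 3, 4, 5 and 6, whose immune marker scores (mean z-score of 15 genes) were 1.45, 1.23, 1.32 and 1.65, against -0.47, -0.43 and 0.67 in replicates 1, 2 and 7. In such bulk RNA, fewer hepatocytes and less of a transcript per hepatocyte cannot be told apart.

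Compared per length of transcript, as FPKM (fragments per kilobase and per M mapped fragments), Gnmt was the most abundant of the 9 transcripts in ND at 1202 ± 241 FPKM (SD, n = 8). Mat1a (671 ± 180.0), Ahcy (589.9 ± 103), Pemt (541 ± 105) and Bhmt (454 ± 262) followed, and each neighbouring pair of these 4 differed by less than the spread between animals. Cbs (252 ± 58.6), Cth (153 ± 16.5), Shmt2 (81.9 ± 15.3) and Shmt1 (64.2 ± 12.8) were lower. In HFD, Bhmt stood next to Gnmt, at 1268 ± 319.8 and 1460 ± 461 FPKM (SD, n = 7), a difference smaller than the spread. In eRapa, Bhmt was first with 2132 ± 289 FPKM, ahead of Gnmt with 1397 ± 200.2 FPKM (SD, n = 9), although the ranges of the animals still overlapped. The Shmt1 and Shmt2 transcripts were the least abundant in all 3 groups, and their order was reversed in HFD, where Shmt1 had 72.4 ± 18.4 and Shmt2 68.2 ± 24.2 FPKM, within their spread. The order of the remaining genes can be read from their eRapa levels: Mat1a 969 ± 155 FPKM, Ahcy 577 ± 87.3, Pemt 379.9 ± 50.0, Cbs 228 ± 30.6, Cth 185 ± 43.9, Shmt2 103 ± 23.1 and Shmt1 81.4 ± 10.1. In eRapa, Cbs and Cth differed by less than the spread between animals, as did Shmt2 and Shmt1. In HFD the same held for Ahcy and Pemt, for Pemt and Cbs, and for Cbs and Cth.

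**Figure D1:**
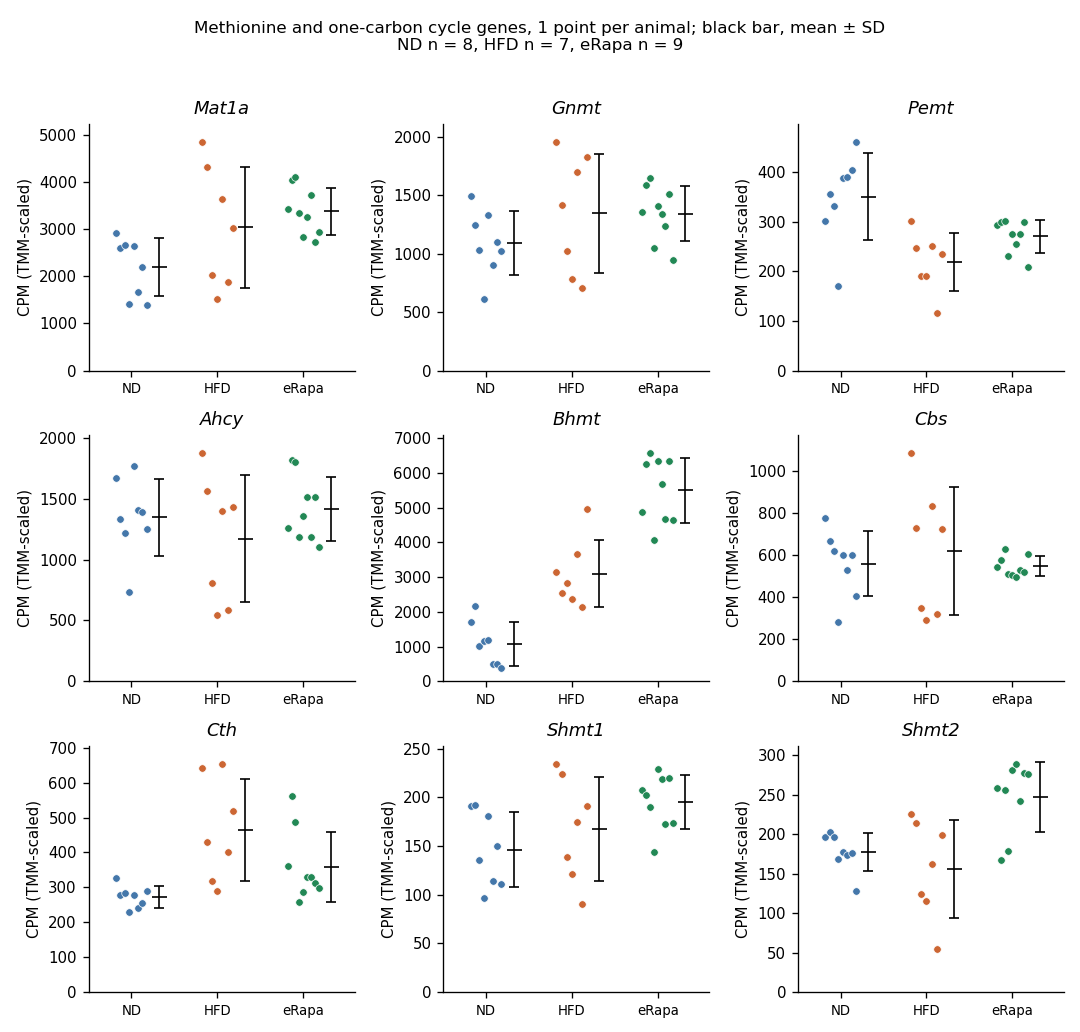
Scaled counts per M counts (CPM, linear axis from 0) of the 9 genes in each animal of the 3 groups, with the mean and SD as a black bar. The 9 eRapa points of Bhmt lie between 4076 and 6574 CPM, above all ND points, while several genes split the HFD animals into a higher and a lower set.

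The first comparison asked how the high-fat diet altered these transcripts. Bhmt, which remethylates homocysteine, and Cth, which releases cysteine, were higher in HFD than in ND, and Pemt, which makes phosphatidylcholine with SAM, was lower. These 3 of the 9 genes passed the edgeR test at an adjusted p under 0.05 (termed called), beside 25.9% of all genes tested (16.0% higher and 9.86% lower). Over the 9 genes the median log2 fold change came to 0.20, against 0.05 over all genes tested, and in none of the 9 were the animals of both groups fully separated (background 2.44%).

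The second comparison asked whether eRapa changed expression on the high-fat diet. Bhmt and the mitochondrial serine enzyme Shmt2 were higher in eRapa than in HFD, and the other 7 genes did not pass. The share of all genes tested that was called was 32.0% (10.9% higher and 21.1% lower). The 9 genes had a median log2 fold change of 0.22, against -0.04 over all genes, with 0 genes fully separated between groups (background 2.59%).

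Against ND, eRapa showed higher Bhmt and Mat1a, beside 13.5% of all genes called (6.93% higher and 6.54% lower). The median over the 9 genes was 0.40, against -0.03 over all genes. Bhmt was the 1 gene whose animals did not overlap (background 3.37%). The HFD animals serve in both of the preceding contrasts, and each group of animals in 2 of the 3, so the contrasts are not independent of each other.

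Mat1a encodes the methionine adenosyltransferase of adult liver, which makes SAM (ENSMUSG00000037798.7, GRCm38 chromosome 14, 41105035 to 41124412, plus strand, protein coding). Its level was 1391 CPM in the lowest, 2402 in the median and 2923 in the highest ND animal, 1515, 3024 and 4839 CPM in HFD, and 2729, 3340.2 and 4099.8 CPM in eRapa. Of the 9 eRapa animals, 7 lay above all ND animals, whereas HFD was divided, with replicates 3, 4 and 6 at or below 2030.0 CPM and the other 4 at or above 3024 CPM. The log2 fold change was 0.63 for eRapa against ND (SE 0.21, edgeR adjusted p = 0.0483), 0.47 for HFD against ND (SE 0.22, adjusted p = 0.114) and 0.15 for eRapa against HFD (SE 0.22, adjusted p = 0.620). For HFD against ND, Mat1a was called at 0.73 with the immune score as a covariate (adjusted p = 0.0341), at 0.71 with the stromal and biliary score (mean z-score of 20 genes, 0.0129) and at 0.90 without the 4 HFD libraries of highest immune score (0.0168), a removal chosen after the data were seen. The call of eRapa against ND was close to the threshold. It was lost on removal of any 1 of 18 libraries (adjusted p up to 0.114), among them all 9 eRapa libraries, with DESeq2 size factors (0.0544), with no expression filter (0.0879) and with limma on log2(FPKM + 1) (0.0684).

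Gnmt, the glycine N-methyltransferase that disposes of surplus SAM (ENSMUSG00000002769.9, chromosome 17, 46725664 to 46729168, minus strand), did not pass in any contrast. It had 608, 1065 and 1489 CPM in the lowest, median and highest ND animal, 703, 1414 and 1952 CPM in HFD and 949, 1354 and 1644 CPM in eRapa, and all groups overlapped. The difference between eRapa and HFD was -0.0025 on the log2 scale (SE 0.20), the smallest among the 9 genes in that contrast. HFD and eRapa stood at similar values above ND, 0.30 each (SE 0.21 and 0.20, edgeR adjusted p = 0.292 and 0.367).

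Pemt, phosphatidylethanolamine N-methyltransferase (ENSMUSG00000000301.16, chromosome 11, 59970614 to 60046489, minus strand), fell with the diet. Levels were 171, 372 and 460 CPM (lowest, median, highest) in ND, 116, 234 and 300.3 CPM in HFD and 208, 274 and 301 CPM in eRapa. All 7 HFD and all 9 eRapa animals lay below the ND median, but ND replicate 4 was lower than all eRapa animals. The log2 fold change was -0.68 between HFD and ND (SE 0.18, edgeR adjusted p = 0.00937). eRapa was intermediate, with 0.31 against HFD (SE 0.17, adjusted p = 0.175) and -0.37 against ND (SE 0.16, adjusted p = 0.146). The latter became -0.49 without ND replicate 4 (adjusted p = 0.0278) and -0.49 with limma on log2(FPKM + 1) of all libraries (adjusted p = 0.0403). Without the 4 HFD libraries of highest immune score, the fall in HFD was -0.42 (adjusted p = 0.280), with 3 HFD animals left.

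Ahcy, the hydrolase that splits S-adenosylhomocysteine into homocysteine and adenosine (ENSMUSG00000027597.15, chromosome 2, 155059310 to 155074497, minus strand), showed no called difference. Its levels were 734, 1362 and 1767 CPM in ND, 547, 1397 and 1874 CPM in HFD and 1099, 1356 and 1816 CPM in eRapa (lowest, median and highest animal). The 3 medians were close, while in HFD the highest animal had 3.43 times the level of the lowest. Log2 fold changes were -0.20 for HFD against ND (edgeR adjusted p = 0.539), 0.27 for eRapa against HFD (0.373) and 0.07 for eRapa against ND (0.886).

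Bhmt, betaine-homocysteine S-methyltransferase (ENSMUSG00000074768.6, chromosome 13, 93616675 to 93637961, minus strand), differed most between groups. Its neighbour Bhmt2 encodes a related methyltransferase, and the 250 bases before the RefSeq start of each gene are shown to allow the pair to be compared (RefSeq, GRCm38.p6, read on the minus strand of the genome, at chr13:93637759-93638008 and chr13:93674303-93674552). The RefSeq start of Bhmt lies downstream of the one in the position above, so most of its window falls within the gene as given there. Capitals mark CCAAT or its reverse complement ATTGG, and GGGCGG or its reverse complement CCGCCC.
Bhmt: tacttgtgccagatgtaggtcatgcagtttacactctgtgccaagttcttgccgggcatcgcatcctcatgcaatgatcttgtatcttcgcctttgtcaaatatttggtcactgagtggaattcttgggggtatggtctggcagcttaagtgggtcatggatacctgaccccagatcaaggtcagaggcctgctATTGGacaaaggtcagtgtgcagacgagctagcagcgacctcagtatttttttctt
Bhmt2: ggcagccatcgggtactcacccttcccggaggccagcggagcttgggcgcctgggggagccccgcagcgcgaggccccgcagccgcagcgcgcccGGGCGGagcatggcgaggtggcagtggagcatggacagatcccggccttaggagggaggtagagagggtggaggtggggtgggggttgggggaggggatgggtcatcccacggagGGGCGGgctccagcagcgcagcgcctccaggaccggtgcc
The Bhmt window held 1 match to CCAAT and none to GGGCGG, and that of Bhmt2 none to CCAAT and 2 to GGGCGG. Among 32851 promoter windows of the same length, 33.8% held CCAAT and 32.7% held GGGCGG on either strand. A match of letters is not evidence of binding.

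In ND, Bhmt was found at 394 CPM in the lowest, 1088 in the median and 2158 in the highest animal. The values were 2148, 2833 and 4966 CPM in HFD, and 4076, 5693 and 6574 CPM in eRapa. The groups thus formed a rising series with little overlap, since 6 of 7 HFD animals exceeded all ND animals, and all 9 eRapa animals exceeded all HFD animals but replicate 7 and in 5 cases that one too. Bhmt rose by a log2 fold change of 1.52 with the diet (HFD against ND, SE 0.29, edgeR adjusted p = 0.00101), 2.87-fold, and was a further 0.83 higher with eRapa (eRapa against HFD, SE 0.28, adjusted p = 0.0275), 1.78-fold. eRapa exceeded ND by 2.35 (SE 0.28, adjusted p = 6.80e-06), 5.10-fold. Bhmt took 0.112% of all counts on average in ND, 0.312% in HFD and 0.527% in eRapa, and 14.5, 31.4 and 41.4% of the counts of the 9 genes together.

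The difference in Bhmt between eRapa and HFD moved with the marker scores. With the immune score as a covariate it was 0.45 (edgeR adjusted p = 0.420) and with the stromal and biliary score 0.30 (0.672). Both scores differed between the groups, with immune medians of 1.23 in HFD and -0.28 in eRapa and stromal and biliary medians of 0.90 and -0.25. Score and group are thus partly confounded, and these fits cannot tell them apart. On removal of 1 library, the value ran from 0.77 to 0.98, and the call was lost without HFD replicate 3 (0.82, adjusted p = 0.0509), 4 (0.79, 0.0572) or 6 (0.77, 0.0604). Without the 4 HFD libraries with an immune score above 1 it was 0.64 (0.552), with 3 HFD animals left. The rise of HFD over ND remained called in each of these settings.

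Close relatives could in principle exchange reads with Bhmt. The pseudogene Bhmt-ps1 was listed with 0.0963 to 0.318% as many counts as Bhmt per library. By FPKM its means were 7.63, 21.8 and 31.9 in ND, HFD and eRapa, against 454, 1268 and 2132 for Bhmt. Counts given to the pseudogene do not show reads that match both genes and were left uncounted, so an exchange of reads was not tested. Bhmt2 had 109, 157 and 195 CPM in ND, 111, 197 and 239.6 CPM in HFD and 173, 220.2 and 289 CPM in eRapa (lowest, median, highest). It was called between eRapa and ND, at 0.53 (SE 0.16, adjusted p = 0.0228), and not between HFD and ND, at 0.20 (adjusted p = 0.372). The log2 ratio of Bhmt to Bhmt2 within a library was 1.66 to 3.47 in ND, 3.69 to 4.37 in HFD and 4.45 to 4.97 in eRapa. This ratio was looked at after the values were seen and is given without a test.

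Cbs and Cth catalyse the steps of transsulfuration. Cbs, cystathionine beta-synthase (ENSMUSG00000024039.15, chromosome 17, 31608894 to 31637238, minus strand), condenses homocysteine with serine. It had 284, 598 and 775 CPM in ND, 292, 724 and 1085 CPM in HFD and 495, 528 and 631 CPM in eRapa (lowest, median, highest), all overlapping. Its spread differed more than its level, the highest animal exceeding the lowest 3.71-fold in HFD and 1.28-fold in eRapa. Log2 fold changes were 0.14, -0.18 and -0.03 for HFD against ND, eRapa against HFD and eRapa against ND (edgeR adjusted p = 0.681, 0.586 and 0.950).

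Cth, cystathionine gamma-lyase (ENSMUSG00000028179.12, chromosome 3, 157894248 to 157925077, minus strand), cleaves cystathionine to cysteine. The lowest, median and highest animals had 228, 277 and 327 CPM in ND, 289, 429.5 and 654 CPM in HFD and 257, 329.6 and 562 CPM in eRapa. All 7 HFD animals lay above the ND median and 5 of them above all ND animals. Cth rose by 0.77 on the log2 scale in HFD against ND (SE 0.18, edgeR adjusted p = 0.00468). In eRapa it was -0.37 relative to HFD (SE 0.17, adjusted p = 0.102) and 0.40 relative to ND (SE 0.17, adjusted p = 0.127), neither of which passed. Without eRapa replicate 2, the highest Cth library of that group, the contrast with HFD was -0.48 (adjusted p = 0.0263), and with limma on log2(FPKM + 1) of all libraries it was -0.44 (adjusted p = 0.0314).

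Shmt1 and Shmt2 encode the cytosolic and the mitochondrial serine hydroxymethyltransferase, which move a carbon unit from serine to tetrahydrofolate. The windows before their RefSeq starts are given because the 2 transcripts moved unequally (RefSeq, GRCm38.p6, minus strand, chr11:60811266-60811515 for Shmt1 and chr10:127522445-127522694 for Shmt2). The RefSeq start of Shmt1 lies downstream of that in the annotation used for its position, so its window falls within the gene as given below. Capitals have the same meaning as for Bhmt.
Shmt1: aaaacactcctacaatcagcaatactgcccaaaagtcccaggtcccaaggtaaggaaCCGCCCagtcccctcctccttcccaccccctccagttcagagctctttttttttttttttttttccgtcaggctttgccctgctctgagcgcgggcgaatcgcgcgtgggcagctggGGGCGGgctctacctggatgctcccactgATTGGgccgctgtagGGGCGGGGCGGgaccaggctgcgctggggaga
Shmt2: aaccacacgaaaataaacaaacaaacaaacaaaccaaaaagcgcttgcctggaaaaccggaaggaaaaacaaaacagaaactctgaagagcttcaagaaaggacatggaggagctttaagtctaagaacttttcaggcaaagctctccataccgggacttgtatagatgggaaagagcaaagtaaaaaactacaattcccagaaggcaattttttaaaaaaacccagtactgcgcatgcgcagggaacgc
The Shmt1 window held 1 match to CCAAT and 4 to GGGCGG, of which the last pair overlap each other, and the Shmt2 window held neither. CACGTG and TATAAA, which occur in 6.02 and 12.4% of all windows, were found in neither of them, nor in the windows of Bhmt and Bhmt2.

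Shmt1 (ENSMUSG00000020534.14, chromosome 11, 60788104 to 60811718, minus strand) had 96.2, 143 and 192 CPM in ND, 90.7, 175 and 235 CPM in HFD and 144, 202 and 229 CPM in eRapa. The groups overlapped, and 9 of 9 eRapa animals lay above the ND median. None of its contrasts passed, with 0.20 for HFD against ND, 0.22 for eRapa against HFD and 0.42 for eRapa against ND (edgeR adjusted p = 0.435, 0.369 and 0.117). Shmt1 was called for HFD against ND at 0.51 with the immune score as a covariate (adjusted p = 0.0335) and at 0.48 with the stromal and biliary score (0.0112). Without the 4 HFD libraries of highest immune score it was 0.57 and not called (0.0973). For eRapa against ND it was called at 0.42 in a fit of those groups alone (adjusted p = 0.0483) and at 0.38 with the immune score (0.0334). Without the 4 libraries it was called at 0.42 (0.0427). It was not called there with the stromal and biliary score (0.21, adjusted p = 0.182), limma on log2(FPKM + 1) (0.35, 0.124) or DESeq2 (0.42, 0.131). Smcr8, on the opposite strand, overlaps the end of Shmt1 and reached 44.0 CPM, and whether counting used the strand is not given in the sources used here. Genes overlapping Ahcy, Bhmt, Cth and Shmt2 reached at most 0.788, 3.26, 4.94 and 1.30 CPM.

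Shmt2 (ENSMUSG00000025403.5, chromosome 10, 127517123 to 127522444, minus strand) had 128, 177 and 202 CPM in ND, 54.6, 162 and 225 CPM in HFD and 167, 258 and 289 CPM in eRapa. All but 2 eRapa animals exceeded every HFD animal and every ND animal, the exceptions being replicates 2 and 4. The log2 fold change between eRapa and HFD was 0.66 (SE 0.20, edgeR adjusted p = 0.0151), 1.58-fold, and between HFD and ND -0.18 (SE 0.20, adjusted p = 0.529). The value of 0.48 against ND did not pass (SE 0.19, adjusted p = 0.106). It was called when those groups were fitted alone (0.48, adjusted p = 0.00724) and with the immune score as a covariate (0.40, 0.0449). The same held without HFD replicate 6 (0.46, 0.0280) and without the 4 HFD libraries of highest immune score (0.49, 0.00568). It was not called with the stromal and biliary score (0.23, adjusted p = 0.278), limma on log2(FPKM + 1) (0.31, 0.411) or the replicate block (0.47, 0.189). DESeq2 (0.48, 0.103) and no expression filter (0.49, 0.174) gave no call either. Against HFD, the value was 0.26 with the immune score as a covariate (adjusted p = 0.395), 0.17 with the stromal and biliary score (0.660) and 0.22 without the 4 HFD libraries of highest immune score (0.643). It was called in all fits that left out 1 library.

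**Figure D2:**
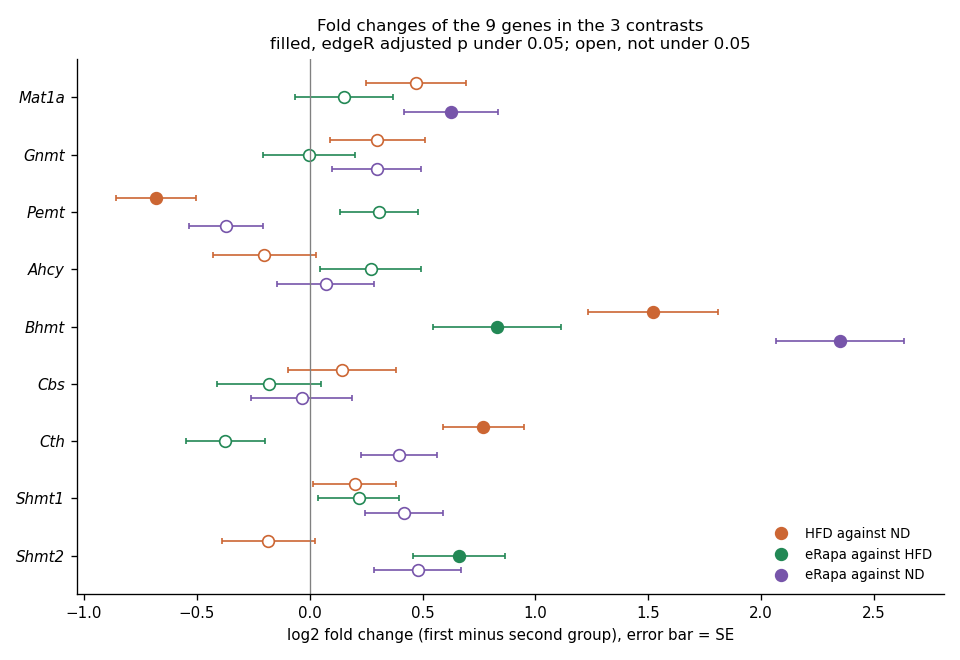
Log2 fold changes of the 9 genes in the 3 contrasts with their SE as error bars, filled where the edgeR adjusted p was under 0.05. Bhmt is the only gene filled in all 3 contrasts, at 1.52, 0.83 and 2.35, and Pemt the only one filled below 0, at -0.68.

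Ratios of transcripts within a library, which do not depend on scaling between libraries, were compared for enzymes that share a step or a branch point. The Shmt2 to Shmt1 ratio was lower in HFD than in both other groups. On the log2 scale it ran from -0.02 to 0.80 in ND (median 0.22), from -0.73 to 0.06 in HFD (median -0.09) and from -0.27 to 0.66 in eRapa (median 0.33). All 7 HFD animals lay below the ND median. The mean difference was -0.47 for HFD against ND (exact permutation p = 0.00186, two-sided, adjusted over 9 tests 0.00336) and 0.49 for eRapa against HFD (exact permutation p = 0.00122, adjusted 0.00336). eRapa and ND differed by 0.02 (exact permutation p = 0.888). Without the 4 HFD libraries of highest immune score, the difference between HFD and ND was -0.33 (exact permutation test, adjusted p = 0.0955, 3 against 8 animals).

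The ratio of Bhmt to Cbs sets remethylation by betaine against entry into transsulfuration. Its log2 value was -0.24 to 2.04 in ND (median 0.85), 1.54 to 3.02 in HFD (median 2.75) and 2.94 to 3.65 in eRapa (median 3.38). eRapa did not overlap ND. The mean rose by 1.66 from ND to HFD (exact permutation p = 0.00186, adjusted 0.00336) and was 0.88 higher in eRapa than in HFD (exact permutation p = 0.000524, adjusted 0.00236). Against ND the difference was 2.54 (exact permutation p = 4.11e-05, the smallest that these groups allow, adjusted 0.00037). Without the 4 libraries named above, the rise from ND to HFD was 1.27 (exact permutation test, adjusted p = 0.0701).

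Mat1a is the adult liver isozyme, and Mat2a encodes the form used in other tissues. Mat2a had medians of 55.5, 48.7 and 54.9 CPM in ND, HFD and eRapa and was not called in any contrast. The log2 ratio of Mat1a to Mat2a was 5.15 ± 0.71 in ND (SD, n = 8), 5.6 ± 0.97 in HFD (SD, n = 7) and 5.95 ± 0.29 in eRapa (SD, n = 9). It was 0.80 higher in eRapa than in ND (exact permutation p = 0.003, adjusted 0.0045), where 9 of 9 animals lay above the ND median. The other 2 differences, 0.44 for HFD against ND and 0.35 for eRapa against HFD, did not pass (exact permutation p = 0.318 and 0.312).

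**Figure D3:**
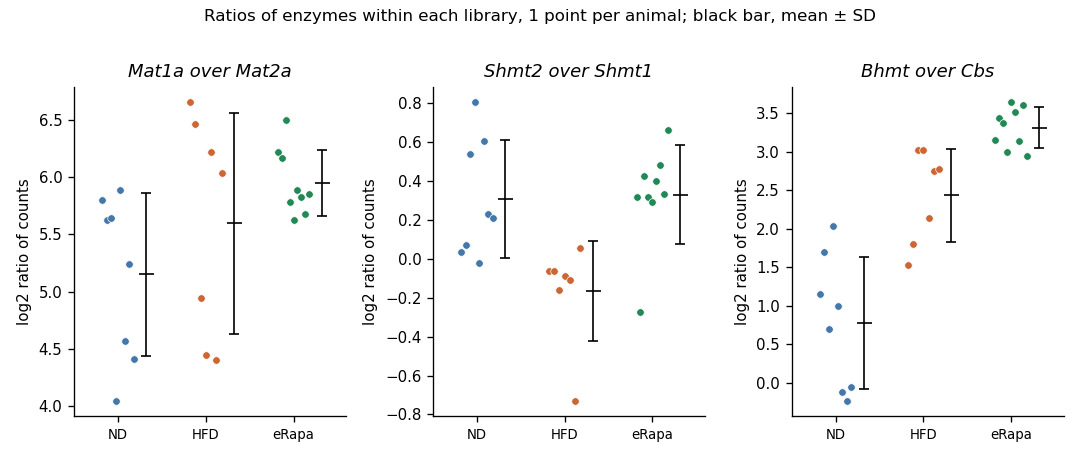
Log2 ratio of counts of Mat1a to Mat2a, Shmt2 to Shmt1 and Bhmt to Cbs within each library, 1 point per animal, with mean and SD as a black bar; the axes do not start at 0. The Shmt2 to Shmt1 ratio has 6 of 7 HFD points below 0, and the Bhmt to Cbs ratio separates eRapa (2.94 to 3.65) from ND (-0.24 to 2.04).

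Variation within HFD was shared by most of the genes. In 8 of the 9 genes, all but Bhmt, replicates 3, 4 and 6 had the 3 lowest values of that group, for example 292 to 349 CPM of Cbs against 724 to 1085 CPM in the other 4 animals, and 547 to 807 CPM of Ahcy against 1397 to 1874 CPM. For Bhmt these sets overlapped, at 2148 to 2833 and 2542 to 4966 CPM. The same 3 animals had immune scores of 1.45, 1.23 and 1.65 and stromal and biliary scores of 1.38, 1.65 and 1.40. Replicate 5, with an immune score of 1.32, had the highest Cth of the group at 654 CPM and was not among the low animals. In ND, replicate 4 had the lowest CPM of 6 genes (Gnmt, Pemt, Ahcy, Cbs, Cth and Shmt1) at an immune score of 0.11. Its TMM factor of 1.30 was the largest of all libraries, which lowers its CPM. By FPKM it was still lowest for Gnmt, Pemt, Ahcy and Cbs, but replicate 6 was lowest for Cth and replicate 8 for Shmt1. The part of other cell types in these values was not tested.

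**Figure D4:**
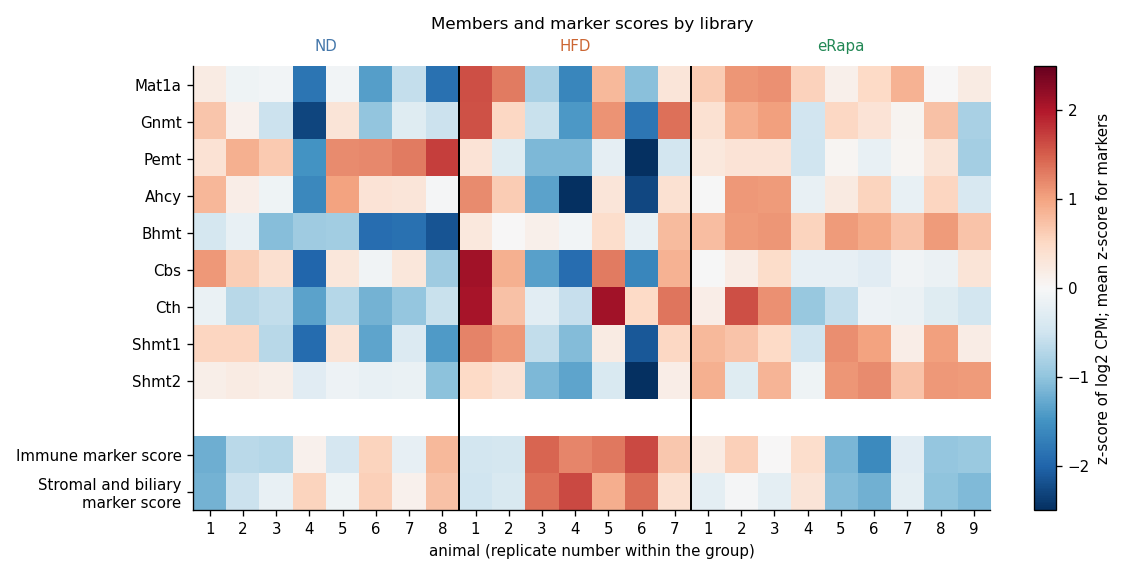
Heat map of the 9 genes (z-score of log2 CPM over the 24 libraries) and of both marker scores (mean z-score), with animals as columns ordered by group and replicate number. HFD replicates 3, 4 and 6 are low in most genes and have immune scores of 1.45, 1.23 and 1.65, whereas the Bhmt row steps up from ND to HFD to eRapa.

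Transcripts of neighbouring steps were read from 10 lists of 86 genes, of which 84 were tested. Between HFD and ND 35 were called (41.7%, 22 higher and 13 lower), with a median log2 fold change of 0.16. Between eRapa and HFD 30 were called (35.7%, 15 in each direction, median -0.02), and between eRapa and ND 19 (22.6%, 13 higher and 6 lower, median 0.09). The percentages over all genes tested were 25.9, 32.0 and 13.5%. Genes named below are taken from the 2 of largest change per list and contrast, and a few further called genes were added after their values were seen. All values given for them without a unit are log2 fold changes that passed the edgeR test. Those with the diet compare HFD with ND, and those with eRapa compare eRapa with HFD unless ND is named.

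Upstream of SAM, the amino acid transporter Slc7a8 and Mat2b, the regulatory subunit of the Mat2a enzyme, were the 2 of 4 genes called. Slc7a8 rose by 2.30 on the log2 scale with the diet (HFD against ND) and fell by 2.80 with eRapa (eRapa against HFD). Its mean levels were 5.29 ± 5.34, 26.1 ± 21.2 and 3.74 ± 3.24 CPM in ND, HFD and eRapa (SD, n = 8, 7 and 9). Mat2b followed at 0.36 and -0.36. Among 8 other enzymes that use SAM, Nnmt, which methylates nicotinamide, was higher in HFD (1.90) and in eRapa (1.39) than in ND, and so was the thiopurine methyltransferase Tpmt (0.99 and 1.22, edgeR adjusted p = 1.91e-06 and 4.87e-08). Icmt, which methylates prenylated proteins, was -0.50 with the diet and 0.35 in eRapa against HFD, and the histamine methyltransferase Hnmt was 0.72 with the diet.

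Around homocysteine, adenosine kinase (Adk), which clears the adenosine that Ahcy releases, was higher in HFD (0.40) and eRapa (0.54) than in ND. Ada, adenosine deaminase, was present at 0.460 to 1.70 CPM on average and fell by 1.86 in eRapa against HFD. In the remethylation list, the folate-dependent methionine synthase Mtr rose by 0.63 with the diet and was -0.72 in eRapa against HFD. The cobalamin handling genes Mmachc and Mmadhc moved in opposite directions with the diet, at 0.39 and -0.30, and Mmadhc was 0.38 higher with eRapa.

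Of 6 genes that supply or consume betaine, 1, 2 and 1 were called in the 3 contrasts. Chdh, which oxidises choline on the way to betaine, was -0.48 with the diet and 0.59 with eRapa against HFD. Dmgdh, which breaks down the dimethylglycine that Bhmt forms, was 0.79 higher in eRapa than in HFD and 0.76 higher than in ND, with 645 ± 115 CPM (SD, n = 9) against 372 ± 136 (SD, n = 7) and 380.3 ± 79.9 CPM (SD, n = 8). Of the alternative route to phosphatidylcholine, choline kinase Chka was lower than ND in both high-fat groups, at -1.47 and -1.39, while the choline phosphotransferase Chpt1 was higher, at 0.47 and 0.79. The same list also held enzymes of ethanolamine, of which the phosphotransferase Selenoi was -0.72 with the diet and 0.53 with eRapa. Cept1 of that list was -0.56 with eRapa.

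Downstream of Cth, Csad, which commits cysteine to taurine, showed the largest fall of the cysteine list. It had 374 ± 152 CPM in ND, 64.5 ± 28.9 CPM in HFD and 198 ± 56.1 CPM in eRapa (SD, n = 8, 7 and 9), that is -2.54 with the diet, 1.62 with eRapa against HFD and -0.92 for eRapa against ND. Cysteine dioxygenase Cdo1, a step before Csad, was -0.57 with the diet and 0.56 with eRapa. The sulfite oxidase Suox (0.69) and Sqor (0.49), which oxidises sulfide, were higher with the diet, and Mpst, a sulfurtransferase, was higher with eRapa against HFD (1.01) and ND (0.84).

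Among 18 folate genes tested, 5, 5 and 2 were called in the 3 contrasts. The mitochondrial enzymes Aldh1l2 and Mthfd1l had the largest called differences between HFD and ND, both at low levels. Mthfd1l was at 1.28, 5.33 and 1.60 CPM on average in ND, HFD and eRapa (2.04 and -1.72), and Aldh1l2 at 1.74, 0.239 and 0.124 CPM (-2.82 with the diet and -3.73 for eRapa against ND). Folr2, which is a macrophage gene in liver, was -2.41 in eRapa against HFD, alongside the macrophage markers. Of serine and glycine genes, serine dehydratase Sds rose from 77.6 ± 55.0 CPM in ND to 422 ± 285 CPM in HFD (2.44) and was at 143 ± 51.6 CPM in eRapa (-1.55 against HFD). Its relative Sdsl was 1.21 with the diet, and the glycine cleavage gene Gldc 0.82. The serine synthesis gene Psat1 was low, at 3.17 ± 2.21, 3.0 ± 4.12 and 0.747 ± 0.343 CPM (SD, n = 8, 7 and 9). It fell in eRapa against HFD and ND, at -2.0 and -2.07, as Psph did against ND (-0.54).

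In the salvage and polyamine list, Sat1, which acetylates polyamines, was 1.26 with the diet and -1.61 with eRapa against HFD, at 58.5 ± 28.1, 140.5 ± 121 and 45.9 ± 11.3 CPM (SD, n = 8, 7 and 9). Sms, spermine synthase, was -0.82 with eRapa, Mri1 of methionine salvage was -0.61 with the diet, and Apip was 0.45 and 0.35 above ND in HFD and eRapa. With the immune score as a covariate, 6 of the 84 genes were called between eRapa and HFD in place of 30, and without HFD replicate 6, 17. Over all genes tested, these settings called 945 of 13847 and 3269 of 13910, in place of 4432.

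**Figure D5:**
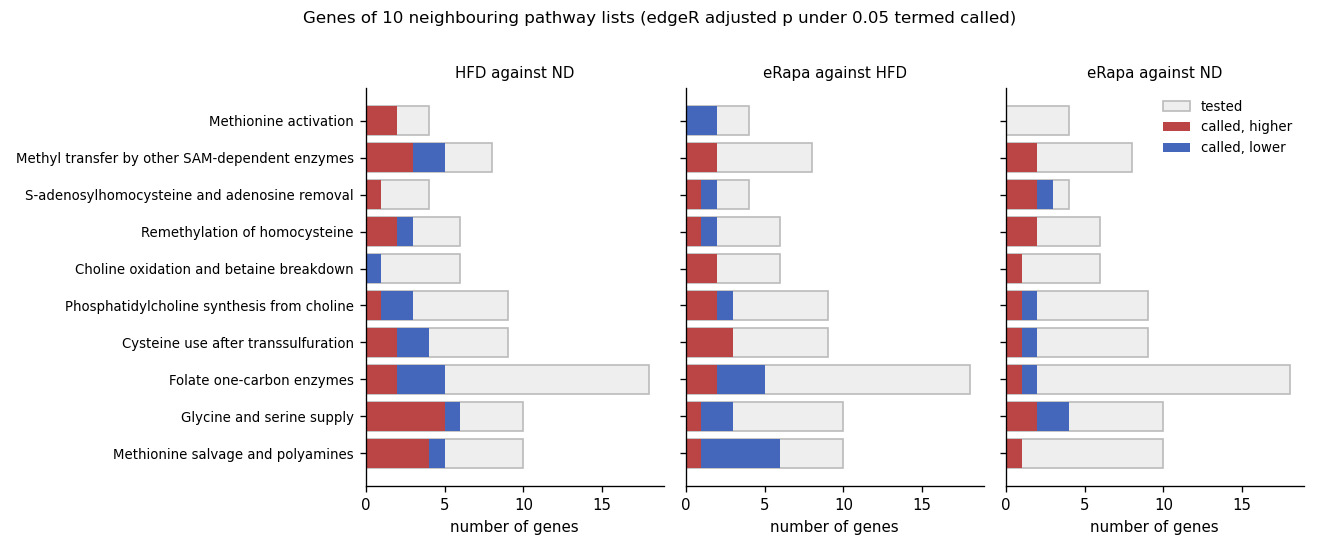
Number of genes tested (grey), called higher (red) and called lower (blue) in 10 lists of neighbouring pathway genes for each contrast. The folate list is the longest with 18 genes tested and has 5, 5 and 2 called, and the methionine activation list has 2 of 4 higher with the diet and 2 of 4 lower with eRapa.

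The genes whose log2 CPM over the 24 libraries most resembled each member were named by Pearson's r, as a description over libraries that share their preparation and differ in cell content. Shmt2 was most like Letm1 (r = 0.98, Spearman's rho = 0.96) and Igfbp4 (0.98 and 0.93), out of 7804 genes compared. Ahcy was most like Pipox (0.94) and Aldh8a1 (0.94), Mat1a like Slc25a15 (0.93) and Aass (0.92), Gnmt like Asl (0.92) and Serpina1d (0.90), and Cbs like Amdhd1 (0.92) and Aldh8a1 (0.92). These likenesses were as high or nearly so after removal of group means, between 0.92 and 0.97 for the genes just named. Pemt was most like Slc6a13 (0.91) and Lipc (0.91), Cth like Otc (0.88) and Maob (0.86), and Shmt1 like Bhmt2 (0.91) and Nr1h4 (0.90). Bhmt was most like Agxt2 (0.89) and Mpv17l (0.88), and these values were 0.38 and 0.69 once group means were removed. Of the 18 genes so named, 2 for each member, 6 remained the most alike by Spearman's rho and 3 by r after removal of group means. Between pairs of members, r with Bhmt ran from -0.38 (Pemt) to 0.67 (Mat1a), and the highest value was that of Gnmt and Shmt1 at 0.87.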

How the data were processed

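The members and the gene lists were chosen with earlier results of these data known. Per the authors' methods, reads were aligned to mm10 (Gencode annotation) with STAR in its multi-pass mode and filtered with SAMtools 1.1.0. The authors counted reads per gene with HTSeq 0.11.2, and the deposited counts are whole numbers without scaling. The authors computed the deposited FPKM values with Cufflinks. Whether counting used strand is not given in the sources used here. All columns of both tables matched a sample by name. Gene positions were read from the GRCm38 annotation, and promoter windows from RefSeq (entries for 7 of the 9 genes).

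Groups followed the sample labels. The 24 libraries were fitted together with edgeR 4.0.16 (R 4.3.3): filterByExpr, TMM scaling, glmQLFit (robust) and glmQLFTest, no covariates, with Benjamini-Hochberg adjustment over 13847 genes. SE was taken as the size of the log2 fold change over the root of its F statistic. log2 CPM used a prior count of 2. Ratios were compared by two-sided exact permutation tests, adjusted over 9 tests. Marker scores average z-scores over 15 immune and 20 stromal and biliary genes. The fits were tested on simulated counts. Named genes were the 9 members, their near copies, up to 2 called genes of largest change per list and contrast, and the 2 genes of highest Pearson's r (mean log2 CPM of at least 3). Some genes that this rule selects are not reported here. Alternatives used DESeq2 1.42.0 and limma 3.58.1 (FPKM plus 1, mean FPKM of at least 0.5).

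No pair of libraries of a group agreed within sampling noise (chi-square per degree of freedom at least 11.3). The closest pair, at 11.3, was HFD replicates 3 and 4, which are among the low HFD animals described above. The other HFD pairs ran from 53.0 to 356, and the next closest pair of any group was eRapa replicates 5 and 8 at 18.2. Why HFD replicates 3 and 4 were so alike was not tested. The labels name each library as a separate replicate. Total counts of 17.7 to 25.9 M leave counting error small beside the spread between animals for all 9 genes.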

Additional observations from a re-analysis of the deposited data

Results flagged for a closer look

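In 6 of the 51 groups of values examined, 1 animal lay far from all others of its group by the Dixon gap test, where chance gives about 1 in 20, or 2.55 groups. In ND, replicate 4 was far below the other animals for Pemt, with a log2 CPM of 7.42 against 8.24 in the next, and for Ahcy, with 9.52 against 10.25. ND replicate 8 was low for Shmt2, with a log2 CPM of 7.0 against 7.40. The log2 ratio of Shmt2 to Shmt1 was -0.73 in HFD replicate 6, with the next at -0.16, and -0.27 in eRapa replicate 2, with the next at 0.29. The smallest HFD library, replicate 3, held 19.8 M counts, against 21.3 M in the next. The causes were not tested.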

How the results depend on the processing

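Most values kept their direction and their side of the threshold. The number of the 9 genes called was 3 for HFD against ND, 2 for eRapa against HFD and 2 for eRapa against ND. For HFD against ND it was 5 with either marker score as a covariate, Mat1a and Shmt1 being added. For eRapa against HFD it was 0 with the immune score, 0 with the stromal and biliary score and 0 without the 4 HFD libraries with an immune score above 1, a setting chosen after seeing the data. For eRapa against ND it was 1 with DESeq2 size factors, 1 with no expression filter, 4 with the immune score, 4 when only both groups were fitted and 4 without those 4 libraries. On removal of 1 library, it was 3 throughout for HFD against ND, 1 to 3 for eRapa against HFD and 1 to 3 for eRapa against ND. Of the 84 tested genes of neighbouring lists, 35 were called for HFD against ND, but 23 with no filter and 20 when only both groups were fitted. For eRapa against HFD 30 were called, but 6 with the immune score, 5 with the stromal and biliary score, 4 without the 4 libraries and 17 to 32 on removal of 1 library. Over the whole table of 13847 genes, 4432 were called for eRapa against HFD, but 945 with the immune and 735 with the stromal and biliary score. Without the 4 libraries it was 449 of 14303. For HFD against ND it was 3584, and 1202 and 1728 with these scores. It was 2933 of 30483 with no filter and 2333 of 13423 when only both groups were fitted. For eRapa against ND it was 1865, and 2681 with the immune score and 1857 with DESeq2 size factors. There it was 1391 of 30483 with no filter, 2344 of 12935 when only both groups were fitted and 2502 of 14303 without the 4 libraries. The causes were not tested.

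Some values of single genes changed sign, none of them called before or after. For HFD against ND, Ahcy was 0.27 and Shmt2 0.27 without the 4 libraries, and Shmt2 was 0.14 with the immune and 0.055 with the stromal and biliary score. For eRapa against HFD, the immune score, the stromal and biliary score and the removal of the 4 libraries gave Mat1a -0.089, -0.23 and -0.27 and Shmt1 -0.13, -0.27 and -0.15, and the last pair of settings gave Ahcy -0.11 and -0.20. Gnmt was 0.038 with no filter and 0.0054 when only both groups were fitted. For eRapa against ND, Ahcy was -0.12 with the stromal and biliary score and -0.025 with limma on FPKM. On removal of 1 library Cbs ran from -0.052 to 0.24 for HFD against ND, from -0.29 to 0.017 for eRapa against HFD and from -0.15 to 0.028 for eRapa against ND, Gnmt from -0.10 to 0.11 for eRapa against HFD, and Ahcy from -0.034 to 0.14 for eRapa against ND. The ratio of Shmt2 to Shmt1 for eRapa against ND was -0.041 with FPKM and ran from -0.028 to 0.095 on removal of 1 library. With medians in place of means, Mat1a to Mat2a was -0.19 and Shmt2 to Shmt1 0.42 for eRapa against HFD (exact permutation test, adjusted p = 0.0695). Without the 4 libraries, Mat1a to Mat2a was 1.24 for HFD against ND (exact permutation test, adjusted p = 0.0409) and -0.44 for eRapa against HFD (0.0701), and for HFD against ND Shmt2 to Shmt1 was -0.33 (0.0955) and Bhmt to Cbs 1.27 (0.0701).

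Replicate numbers are shared by the groups but name different animals. Same-numbered libraries had mean correlations of 0.32, -0.24 and -0.20 after removal of group means in the 3 contrasts. For HFD against ND they ran from -0.36 to 0.73, with 5 of 7 above 0.1. Above 0.1 were also 2 of 7 for eRapa against HFD and 2 of 8 for eRapa against ND. A structure shared by number between HFD and ND cannot be told from these values, and the main fit did not use the numbers. With the replicate block 3, 2 and 3 of the 9 genes were called, Shmt1 being added for eRapa against ND (0.48), Gnmt was 0.13 for eRapa against HFD, Cbs 0.023 for eRapa against ND, and the paired Shmt2 to Shmt1 difference for eRapa against ND was -0.022. The order of the 9 genes by median FPKM equalled that by the mean.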
